A study of Homo sapiens with 10 samples.

Results

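The comparison described here is that of LNCaP-C4-2 cells in which CPT1A was knocked down (KD) with cells of the same line that carried a non-targeting shRNA (NT). Its members are the 3 KD samples and the 2 NT samples whose labels name them as the CPT1A knockdown and its control, 5 of the 10 samples of the series. LNCaP-C4-2 is a castration-resistant line of human prostate cancer. The NT cells received a lentivirus with a control shRNA and the KD cells a lentivirus with 1 shRNA against CPT1A, and both were selected with puromycin at 1 µg per ml. All lines were kept in RPMI medium containing 10% serum and added non-essential amino acids (the study's methods name insulin too), and were harvested at 80% confluency. The other 5 samples are 2 of cells with an empty vector (EV) and 3 of cells with a CPT1A cDNA (OE), which were selected with blasticidin. They share the fit of the spread between samples, and the EV line serves below as a second control line. The methods describe 1 line of each kind and 1 shRNA, and nothing says that the samples of a group are separate transductions or cultures, so p-values measure only the spread between samples of these lines, which may be technical. What the shRNA did through CPT1A and what it did elsewhere cannot be told apart with 1 shRNA.

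CPT1A is the enzyme of the outer mitochondrial membrane that joins long-chain fatty acids to carnitine. The acylcarnitine crosses the inner membrane through the carrier SLC25A20, and CPT2 hands the acyl group back to coenzyme A for beta-oxidation. This entry step controls how much fatty acid mitochondria oxidise, and it is inhibited by malonyl-CoA, the first product of fatty acid synthesis. Prostate cancer cells are known for strong fatty acid synthesis under androgen, and also for use of fatty acids as fuel. The integrated stress response named below is the pathway in which phosphorylation of eIF2α raises translation of the transcription factor ATF4, which in turn raises genes for amino acid supply and tRNA charging.

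CPT1A fell to less than its NT level in every KD sample. CPT1A was at 266 and 262 CPM in the NT samples and at 81.2, 86.4 and 86.2 CPM in the KD samples. No KD sample came near an NT sample, and the means, 264 ± 2.65 CPM and 84.6 ± 2.92 CPM (SD, n = 2 and 3), differed 3.11-fold. The log2 fold change was -1.64 with a standard error (SE) of 0.05 (BH-adjusted p = 2.45e-18 in the edgeR quasi-likelihood test). CPT1A lies on chromosome 11 from 68754620 to 68844410 on the minus strand in GRCh38. The EV cells had 322 ± 5.67 CPM (SD, n = 2), above the NT cells. CPM are counts relative to library size, after scaling by the trimmed mean of M values (TMM).

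Depth was similar in the 5 libraries, 24881229 to 28615770 counts per sample, and 3 counts corresponded to 0.0995 to 0.119 CPM. Replicates differed beyond counting noise, and KD replicate 2 stood apart from the other KD samples. The chi-square per degree of freedom over genes was 2.50 for the NT pair and 2.30 for KD replicates 1 and 3, and 6.80 and 6.999 for the pairs with KD replicate 2. Counts from the mitochondrial genome took 13.1% and 13.2% of the NT libraries and 10.3%, 11.5% and 10.6% of the KD libraries in replicate order. Levels also moved with the GC content of the transcript. With tested genes cut into 5 equal groups by GC content, the median log2 level relative to the NT mean was -0.15, -0.29 and -0.14 in KD replicates 1, 2 and 3 for the group of lowest GC content. For the group of highest it was 0.11, 0.19 and 0.09. In the NT samples the medians lay between -0.01 and 0.01 in each group. Of the genes of lowest GC content 268 were called higher and 710 lower in KD, and of those of highest 760 and 252. Of 13 markers of fibroblasts, immune, endothelial and basal prostate cells, 9 had too few counts to test, among them KRT5, COL1A2 and PECAM1 with 0 counts in each of the 10 libraries. The 4 tested summed to 17.3 to 18.2 CPM in the NT and 24.71 to 27.02 CPM in the KD samples, and COL1A1 and KRT14 were called higher, at 0.63 and 1.97. COL1A1 lost this call without NT replicate 1 (0.54) and with the GC offset (0.44), and KRT14 without NT replicate 1 (1.75) or NT replicate 2 (2.23) and against EV (1.38).

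**Figure D1:**
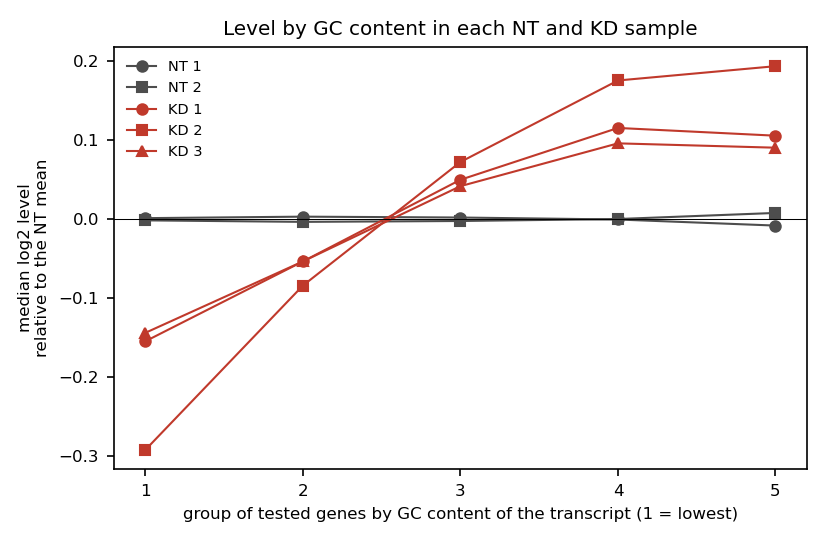
Median log2 level of tested genes relative to the NT mean (vertical axis) in 5 equal groups of genes by GC content of the transcript (horizontal axis), 1 line per NT or KD sample. The KD samples run from -0.29 to -0.14 in the lowest group up to 0.09 to 0.19 in the highest, with KD replicate 2 steepest, and the NT lines stay near 0.

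A gene was called when its p from the quasi-likelihood test of edgeR, adjusted over all genes by the method of Benjamini and Hochberg (BH), was under 0.0001, which is the study's limit. Called were 5022 of 17230 tested genes (29.1%), 2823 higher (16.4%) and 2199 lower (12.8%) in KD. These 3 percentages are the background against which each gene list below is read. Most changes were small. The median called gene was 1.49-fold higher or 1.62-fold lower, and 2244 of the 5022 calls were under 1.5-fold. Changes of at least 2-fold were called for 1186 genes, 583 higher and 603 lower, and of at least 4-fold for 242, of which 107 were higher. The KD and NT samples did not overlap for 12165 genes (70.6%), so a lack of overlap alone says little about a gene here. The share called rose with the level, from 2.86% of genes under 1 CPM to 57.5% of those at 100 CPM or more. Without 1 NT sample the calls fell to 3110 or 3278, of which 3102 and 3266 were also called with all samples. Against EV in place of NT, with the same KD samples, 2949 genes (17.1%) were called, 1577 higher (9.15%) and 1372 lower (7.96%) in KD. The level in EV is therefore given below for the main groups.

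**Figure D2:**
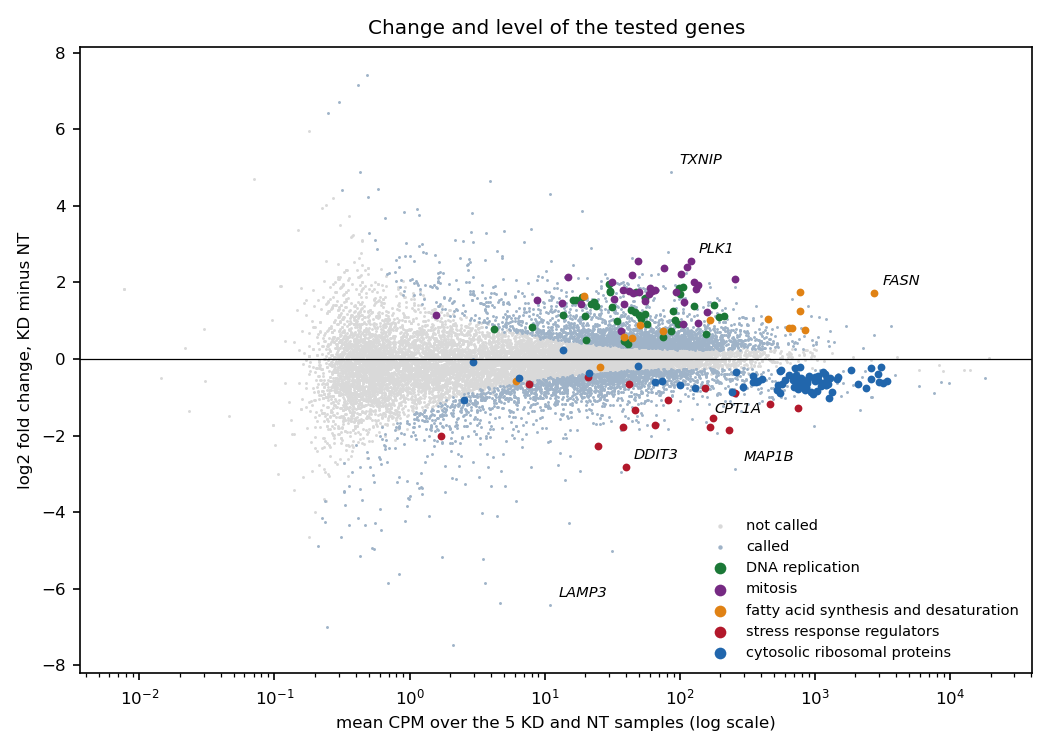
Log2 fold change of KD over NT (vertical axis) against the mean CPM over the 5 samples (horizontal log axis) for the 17230 tested genes, with the members of 5 gene lists coloured. DNA replication and mitosis genes lie above 0, stress response regulators below 0, and the cytosolic ribosomal protein genes form a band near a log2 fold change of -0.58 at high levels.

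The largest rise among genes with at least 5 CPM on average was that of TXNIP, an arrestin-like protein that lowers glucose uptake and binds thioredoxin and is induced by glucose metabolites (chromosome 1, 145992435 to 145996579, minus strand). TXNIP was at 4.83 and 4.73 CPM in the NT samples and at 138.9, 136.8 and 147 CPM in the KD samples. The KD samples were 29.4-fold higher with no overlap, a log2 fold change of 4.88 (SE 0.18, BH-adjusted p = 1.51e-16 in the edgeR quasi-likelihood test), and the EV cells had 8.97 ± 0.3904 CPM. Its relative ARRDC4, which shares the same inducer and was named after its values were seen, was 3.48-fold higher, while ARRDC3 fell by 1.6001 on the log2 scale. Other large rises were those of PGC, a secreted aspartic protease precursor, from 0.83 and 0.953 to 17.8, 19.2 and 16.4 CPM, and of CYP4F8, a prostaglandin hydroxylase of the seminal tract, from 2.08 and 2.06 to 25.8, 32.6 and 32.1 CPM. EFNB2, a ligand of Eph receptors, rose from 19.3 and 17.04 to 124, 128 and 124 CPM, and PHLDA1 from 1.396 and 1.23 to 10.5, 10.3 and 11.7 CPM. The 15 called genes with the largest rises at this level also held COL12A1, MYBPC1, CRISP3 and MMP16, and 6 genes of cell division, GTSE1, PIF1, AURKA, PLK1, CDC20 and KIF20A. MMP16, a membrane metalloprotease, had 1.43 and 0.913 CPM in NT and 11.5, 12.5 and 13.3 CPM in KD but 27.9 ± 0.805 CPM in EV, so that KD lay above 1 control and below the other. COL12A1 was at 33.6 ± 3.801 CPM in KD and 25.7 ± 0.353 CPM in EV, a difference of 0.39 on the log2 scale that was not called.

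Of the falls among genes with at least 5 CPM on average, that of LAMP3, a lysosomal membrane protein (chromosome 3, 183122215 to 183163839, minus strand), was the steepest. LAMP3 was at 27.6 and 26.1 CPM in the NT samples and at 0.498, 0.197 and 0.232 CPM in the KD samples. The KD values were at 0.1973 to 0.498 CPM, close to the floor of 3 counts, and the fitted log2 fold change was -6.43 (SE 0.18, BH-adjusted p = 1.31e-18 in the edgeR quasi-likelihood test). MAP1B, a microtubule-associated protein (chromosome 5, 72107234 to 72209565, plus strand), had the smallest p of the named genes. It went from 568 and 507 CPM in NT to 73.97, 70.8 and 73.7 CPM in KD, 7.38-fold lower (BH-adjusted p = 3.28e-22 in the edgeR quasi-likelihood test), and had 311 ± 4.01 CPM in EV. COL16A1, a fibril-associated collagen, fell from 35.7 and 34.8 to 1.42, 1.89 and 2.09 CPM, and IGFBP3, which binds insulin-like growth factors, from 31.5 and 29.5 to 3.56, 3.67 and 2.98 CPM. CD55, an inhibitor of complement on the cell surface, fell from 31.3 and 30.3 to 4.67, 5.36 and 5.705 CPM, and RELN, a secreted matrix glycoprotein, from 28.4 and 23.03 to 3.64, 3.196 and 4.38 CPM. The other 9 of the 15 largest falls were CAMK1D, ENTPD3, SVIL, ZMAT1, S100P, SLC5A1, DDIT3, LINC00632 and PRSS1. LINC00632, a long noncoding RNA, stood at 77.3 and 76.7 CPM in NT and 10.7, 8.96 and 10.05 CPM in KD but at 4.37 ± 0.825 CPM in EV, below the KD cells, and SLC5A1 lost its call against EV (-0.66 in place of -2.31). PRSS1, a trypsinogen, has near-identical copies, so its reads could be split between genes in ways not stated, and its fold is not given.

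**Figure D3:**
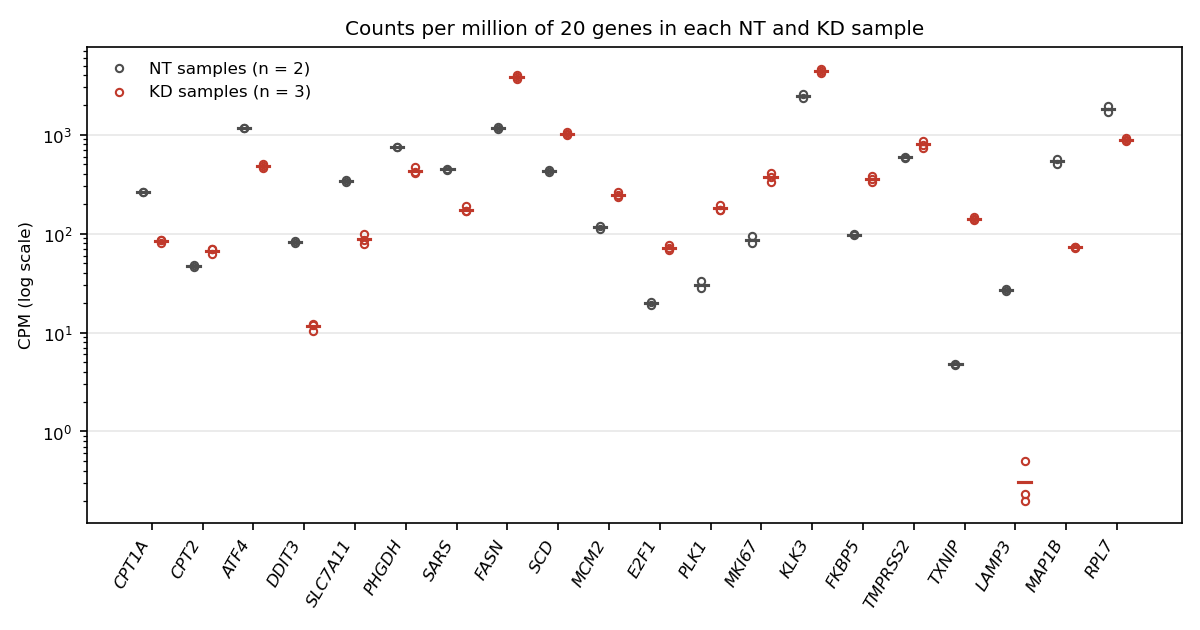
CPM on a log axis (vertical) of 20 genes (horizontal) in each NT sample (grey circles, n = 2) and KD sample (red circles, n = 3), with a bar at each mean. The groups are apart for each of the genes, and TMPRSS2 and CPT2 are among those with the smallest distance.

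The genes of the cell cycle were the largest block of rises. In DNA replication 39 of 40 tested genes were called higher and 0 lower, with a median log2 fold change of 1.21, beside a median of -0.02 over all tested genes. In mitosis 31 of 33 were called higher and 0 lower (median 1.76). Among the cyclins, kinases and E2F factors that start S phase 15 of 17 were higher (median 1.02). In recombination and crosslink repair 12 of 18 were higher and 1, BARD1, lower. BARD1 fell by 0.54 on the log2 scale, but the EV cells had 46.3 ± 3.26 CPM, below the KD cells (70.7 ± 1.18 CPM), and against EV it was called higher (0.61) and 14 of the 18 were higher and 0 lower. The median level of the mitosis list relative to the NT mean was 1.8909, 1.6046 and 1.8016 in the KD samples, with KD replicate 2 lowest, and -0.14 and -0.02 in the EV samples. In the OE samples the mitosis median was 0.63 to 0.86, below KD but above NT and EV, so higher mitosis genes were not particular to KD. For DNA replication the median was 1.2674, 1.176 and 1.1958 in KD, 0.21 and 0.22 in EV and 0.02 to 0.09 in OE. Against EV, 32 of the 33 mitosis genes and 36 of the 40 replication genes were called higher in KD. In bulk RNA a larger share of cells in S phase or mitosis and more of these messages per cycling cell cannot be told apart.

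Single genes of the block moved in every KD sample. MCM2, a subunit of the replicative helicase, had 113 and 119.7 CPM in NT and 265, 245 and 235 CPM in KD. CDC6, which loads the helicase at origins, had 21.8 and 25.8 CPM in NT and 60.7, 55.98 and 55.6 CPM in KD. TYMS, which makes thymidylate, had 40.1 and 46.3 CPM in NT and 150.5, 131.5 and 135.6 CPM in KD, and RRM2, a subunit of ribonucleotide reductase, had 37.8 and 38.9 CPM in NT and 149, 126 and 138.3 CPM in KD. The KD samples were 2.14-fold higher for MCM2 and 3.597-fold for RRM2 (BH-adjusted p = 1e-16 in the edgeR quasi-likelihood test for the latter). PLK1, a kinase that drives mitotic entry and spindle assembly (chromosome 16, 23677656 to 23690367, plus strand), had 27.9 and 33.2 CPM in NT and 194, 172 and 174 CPM in KD, the second steepest rise of the mitosis list with a log2 fold change of 2.56 (SE 0.08, BH-adjusted p = 4.54e-18 in the edgeR quasi-likelihood test). AURKA, the spindle pole kinase, was highest at 2.57. MKI67, the chromosome surfactant protein used to mark cycling cells, had 80.3 and 93.5 CPM in NT and 409, 336 and 371 CPM in KD. CDK1, the kinase of cyclin B, had 50.97 and 53.1 CPM in NT and 164, 122 and 150.4 CPM in KD, and KD replicate 2 was the lowest of the KD samples for each of these mitosis genes. CENPE and PRC1 were the mitosis genes that missed the limit, at 0.74 and 1.15. Without KD replicate 2, 32 of 33 were called.

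E2F1 and MYBL2, factors that turn on these genes, rose with them. E2F1, which turns on S phase genes, had 19.1 and 20.3 CPM in NT and 76.3, 71.2 and 67.6 CPM in KD, a log2 fold change of 1.86 (BH-adjusted p = 1e-16 in the edgeR quasi-likelihood test), and MYBL2, a factor of the complex that turns on mitotic genes, had 31.8 and 36.97 CPM in NT and 174, 157 and 155 CPM in KD, at 2.23. CCND1, cyclin D1, rose by less, from 312 and 303 to 368, 378 and 357 CPM (0.26 on the log2 scale), and this call was lost against EV (0.0693), with an offset for GC content (0.16) and without NT replicate 1 (0.28), NT replicate 2 (0.24) or KD replicate 1. Of 12 inhibitors of the cycle 2 were higher and 2 lower. CDKN2C (p18), itself a target of E2F factors, rose from 8.602 and 11.2 to 40.3, 35.6 and 35.1 CPM and CDKN2D (p19) from 6.75 and 7.74 to 16.9, 15.6 and 15.7 CPM, and CCNG2 and RBL2 fell, by 0.64 and 0.33 on the log2 scale. Against EV CCNG2 and RBL2 differed by -0.19 and -0.0193 and were not called, and 4 of the 12 were higher and 0 lower. RBL2 also lost its call without NT replicate 1 (-0.34) or NT replicate 2 (-0.31). CDKN1A (p21) had 72.9 and 60.6 CPM in NT and 60.6, 58.4 and 58.3 CPM in KD and CDKN1B (p27) 71.7 and 71.6 CPM in NT and 62.8, 61.9 and 61.7 CPM in KD, with log2 fold changes of -0.18 and -0.21 that were not called. Of 20 targets of p53 5 were higher and 2 lower (median -0.08), and against EV 4 and 3 (median 0.15). MDM2, the ligase that degrades p53, was not called at 0.16, while BTG2 was higher at 1.27 and CCNG1 lower at -0.52.

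Histones of S phase did not follow the replication genes. Of 89 histone symbols listed, pseudogenes among them, 33 had enough counts to test. Of these 12 were lower and 1, HIST1H1C, higher, with a median of -0.51. HIST1H1C was at 0.57 against NT but at 0.0087 against EV, and was not called there or without NT replicate 2 (0.49). HIST1H2AC had 46.8 and 38.8 CPM in NT and 14.5, 14.8 and 14.7 CPM in KD. Messages of this class mostly end in a stem-loop in place of a poly(A) tail, and libraries of poly(A) RNA hold only the part that carries a tail.

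The promoters of all tested members of the mitosis and replication lists, called or not, were read for short motifs, shown here because their shares differ between both lists. Sequences are from RefSeq on GRCh38.p14, 5′ to 3′ on the strand of the gene, and only bases before the annotated start are printed. For mitosis the capitals mark the cell cycle homology region, searched as TTTGAA, and the CCAAT box of the factor NF-Y, each on both strands. In MKI67 the last CHR and a CCAAT box on the other strand overlap.
PLK1, chr16:23678796-23678885, plus strand: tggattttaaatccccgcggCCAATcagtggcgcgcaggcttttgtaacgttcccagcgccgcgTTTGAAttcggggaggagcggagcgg
MKI67, chr10:128126424-128126541, minus strand: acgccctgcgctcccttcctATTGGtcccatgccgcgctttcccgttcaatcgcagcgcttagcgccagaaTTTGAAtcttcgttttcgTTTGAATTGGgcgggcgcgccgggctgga
CDC20, chr1:43358783-43358950, plus strand: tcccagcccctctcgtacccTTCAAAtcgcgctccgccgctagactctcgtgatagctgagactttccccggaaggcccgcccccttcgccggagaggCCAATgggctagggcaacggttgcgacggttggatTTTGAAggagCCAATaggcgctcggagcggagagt
TTTGAA was in the 250 bases before or 50 after the start of 18 of the 27 mitosis genes with a promoter in the table (66.7%), against 9.2% of the 11129 tested genes with one and 15.4% of all 27305 promoters. It was in 1 of 35 replication promoters (2.9%). CCAAT was in 77.8% of the mitosis and 57.1% of the replication promoters, and in 36.7% of those of tested genes.

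For replication the capitals mark the E2F motif, searched as TTTNNCGC on both strands, where N is any base.
UHRF1, chr19:4909369-4909500, plus strand: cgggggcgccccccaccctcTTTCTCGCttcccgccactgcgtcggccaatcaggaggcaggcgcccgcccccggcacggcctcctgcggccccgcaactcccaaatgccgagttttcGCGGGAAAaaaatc
TYMS, chr18:657594-657641, plus strand: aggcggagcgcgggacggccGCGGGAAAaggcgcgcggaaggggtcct
GINS2, chr16:85688958-85689005, minus strand: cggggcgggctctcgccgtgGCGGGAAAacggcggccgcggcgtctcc
This motif was in 21 of the 35 replication promoters (60%) and 3 of the 27 mitosis promoters (11.1%), against 10.4% for tested genes and 6.9% for all promoters. UHRF1, which keeps DNA methylation through replication, had the largest rise of the replication list, with 10.9 and 11.2 CPM in NT and 43.2, 42.1 and 42.99 CPM in KD. A match is a run of letters in a window and not a measured site.

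The integrated stress response showed the opposite direction. Each of 17 listed regulators was called lower in KD and 0 were higher, with a median log2 fold change of -1.32, in a background of 12.8% lower. ATF4 was at 1174 and 1160 CPM in the NT samples and at 464, 508 and 477 CPM in the KD samples. The gene lies on chromosome 22, 39519695 to 39522683, plus strand. The KD samples were 2.42-fold lower, and the EV cells had 897 ± 9.15 CPM, between NT and KD. DDIT3 (CHOP), the factor that ATF4 induces under lasting stress, had 84.6 and 79.6 CPM in NT and 10.3, 12.03 and 12.3 CPM in KD, the largest fall of the list at -2.83 (SE 0.08, BH-adjusted p = 1.94e-18 in the edgeR quasi-likelihood test). TRIB3, a pseudokinase that dampens ATF4, had 301 and 282 CPM in NT and 82.2, 91.2 and 80.1 CPM in KD, and CHAC1, which cleaves glutathione, had 50.3 and 44.8 CPM in NT and 8.01, 10.8 and 10.8 CPM in KD. ATF3 had 69.2 and 63.9 CPM in NT and 18.2, 20.8 and 19.4 CPM in KD, and CEBPB, a partner of ATF4 on DNA, had 70.9 and 76.1 CPM in NT and 29.6, 29.2 and 29.5 CPM in KD. Secreted members fell as well, FGF21 by 2.01, VEGFA by 1.86, STC2 by 1.55 and GDF15 by 1.17 on the log2 scale. The smallest falls were those of ATF5 (-0.65), PPP1R15A (-0.64) and VLDLR (-0.48). The median of the list relative to NT was -1.41, -1.33 and -1.31 in the KD samples and -0.23 and -0.22 in the EV samples, and against EV the same 17 genes were called lower (median -1.22).

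Genes of amino acid supply, many of them targets of ATF4, fell too, though not all. Of 16 genes of amino acid synthesis and transport 11 were lower and 2 higher, with a median of -0.83. Against EV 14 of the 16 were lower and 0 higher (median -0.78). SLC7A11, which imports cystine for glutathione, had 346 and 332 CPM in NT and 86.2, 79.1 and 99.97 CPM in KD, a 3.82-fold fall (BH-adjusted p = 2.76e-17 in the edgeR quasi-likelihood test). CTH, which makes cysteine from cystathionine, had 41.4 and 40.03 CPM in NT and 11.99, 13.02 and 12.8 CPM in KD, and ASNS, asparagine synthetase, had 25.7 and 25.1 CPM in NT and 11.8, 11.3 and 12.04 CPM in KD. SLC43A1, an exporter and importer of branched-chain amino acids that androgens induce, rose from 118 and 122 to 177, 193 and 174 CPM, with 284 ± 18.9 CPM in EV, above both. SLC7A5 of the leucine carrier was not called against NT (274 and 264 CPM in NT and 282, 308 and 272 CPM in KD) and lay below the EV cells (-0.6975 on the log2 scale).

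In serine and one-carbon metabolism, enzymes of serine synthesis and of the mitochondrial folate branch fell, and a pair of cytosolic enzymes rose. Of 14 genes 8 were lower and 2 higher, with a median of -0.49. PHGDH, the first enzyme of serine synthesis, had 759 and 746 CPM in NT and 415, 466 and 406 CPM in KD, and PSAT1, the next, had 579 and 568 CPM in NT and 247, 272 and 252 CPM in KD. PSPH, the last, was lower by less, at -0.57. The mitochondrial SHMT2 (603 and 608 CPM in NT and 388, 434 and 389.9 CPM in KD), MTHFD2 (316 and 315 CPM in NT and 175, 189.8 and 173 CPM in KD) and MTHFD1L fell by 0.58, 0.82 and 0.85 on the log2 scale. Their cytosolic counterparts SHMT1 (41.2 and 45 CPM in NT and 93.5, 85.4 and 83.8 CPM in KD) and MTHFD1 (143 and 144 CPM in NT and 235, 235 and 227 CPM in KD) rose, by 1.02 and 0.697 (BH-adjusted p = 2.11e-12 in the edgeR quasi-likelihood test for SHMT1). SHMT1 and MTHFD1 were also higher in KD than in EV, by 0.64 and 0.45.

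Of 20 aminoacyl-tRNA synthetases of the cytosol, which load amino acids onto tRNAs, 14 were lower and 2 higher, with a median of -0.55. SARS, for serine, fell most, with 449 and 444 CPM in NT and 168, 190.2 and 167 CPM in KD (log2 fold change -1.35, BH-adjusted p = 7.11e-16 in the edgeR quasi-likelihood test). IARS, for isoleucine, had 676 and 673 CPM in NT and 323, 352 and 335 CPM in KD. VARS and FARSA, for valine and phenylalanine, were higher at 0.51 and 0.5048, and KARS, HARS, QARS and FARSB were not called, between -0.04 and 0.20. Against EV 12 of the 20 were lower and 1 higher, and VARS was not called (0.15). Capitals in the promoters below mark the C/EBP-ATF element, searched as TGATGNAA on both strands, through which ATF4 and C/EBP factors are known to act.
CHAC1, chr15:40953242-40953289, plus strand: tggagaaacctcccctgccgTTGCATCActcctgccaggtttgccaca
FGF21, chr19:48755450-48755497, plus strand: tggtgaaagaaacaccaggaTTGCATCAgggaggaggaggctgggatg
IARS, chr9:92293698-92293730, minus strand: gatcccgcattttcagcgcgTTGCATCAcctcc
AARS, chr16:70289666-70289713, minus strand: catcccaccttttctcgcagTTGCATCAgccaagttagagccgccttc
The motif was in 5 of the 12 synthetase promoters in the table (41.7%), 4 of 13 of the amino acid genes (30.8%) and 3 of 15 of the stress regulators (20%), against 1.7% for tested genes and 3.7% for all promoters. It was in none of the 35 replication promoters.

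The unfolded protein response of the endoplasmic reticulum was split. Of 20 chaperone and folding genes 8 were higher and 4 lower (median 0.07). HSPA5 (BiP), the main chaperone of this compartment, had 762.2 and 715 CPM in NT and 859, 889 and 885 CPM in KD, and PDIA4, a disulfide isomerase, had 302 and 296 CPM in NT and 469, 476 and 457 CPM in KD, both called higher. HSPA5 was not called without NT replicate 1 (0.2976), NT replicate 2 (0.21), KD replicate 1 or KD replicate 3, nor with the replicate block or against EV (0.21). HSP90B1 was not called (0.08), and HERPUD1 and DNAJB9 were lower at -0.71 and -0.78. Of 11 sensors and effectors 3 were higher and 3 lower. ERN1 (IRE1) had 97.4 and 92.3 CPM in NT and 52.6, 52.5 and 52.7 CPM in KD, ATF6 had 102 and 104 CPM in NT and 52.8, 60 and 57.2 CPM in KD and XBP1, the message that IRE1 splices, had 365 and 375 CPM in NT and 212, 249 and 238 CPM in KD, all called lower. The eIF2α kinase EIF2AK3 (PERK) was not called at 0.06, and EIF2AK4 (GCN2), which senses uncharged tRNA, was higher at 0.42. Against EV EIF2AK4 (0.0655) and DNAJB9 (-0.5004) were not called, 5 of the 20 chaperones were higher and 2 lower, and 0 of the 11 sensors and effectors were higher and 3 lower.

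**Figure D4:**
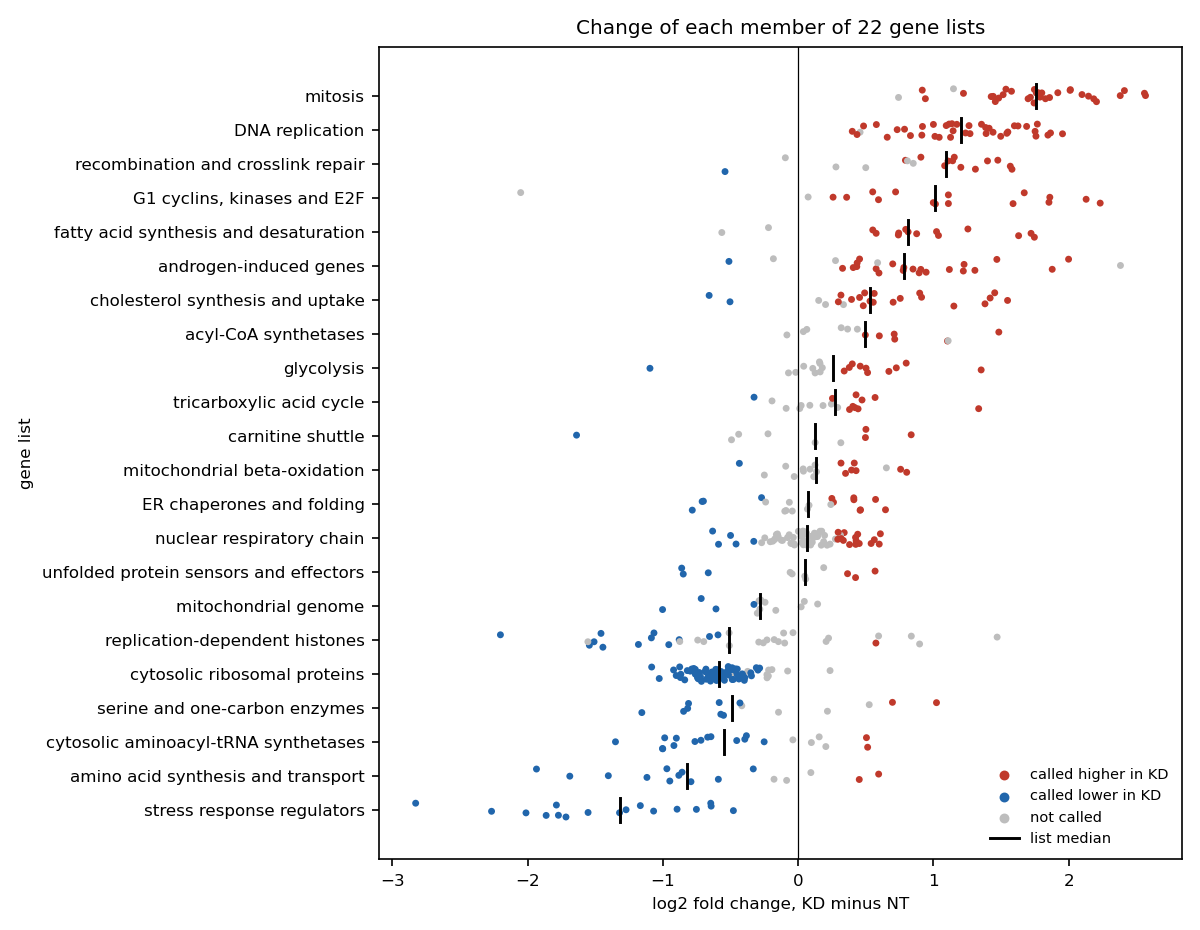
Log2 fold change of KD over NT (horizontal axis) of each tested member of 22 gene lists (vertical axis), coloured by call, with the list median as a black bar. The medians of mitosis, replication and lipid synthesis lie to the right of 0. Those of stress regulators (-1.32), amino acid supply, synthetases and ribosomal proteins lie to the left.

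Genes that build fatty acids rose together. Of 15, 13 were called higher and 0 lower (median 0.81), in a background of 16.4% higher. FASN, fatty acid synthase (chromosome 17, 82078338 to 82098294, minus strand), had 1139 and 1186 CPM in NT and 3839, 3992 and 3672 CPM in KD, and the KD samples were 3.299-fold higher (BH-adjusted p = 4.16e-18 in the edgeR quasi-likelihood test). FADS2, a desaturase of long-chain fatty acids, had 316 and 327 CPM in NT and 1132, 1047 and 1055 CPM in KD, with a log2 fold change of 1.75. SCD, which makes oleate, had 440.1 and 415 CPM in NT and 1004, 1057 and 1001 CPM in KD, and ACACA, which makes malonyl-CoA, had 599.5 and 606 CPM in NT and 987, 1047 and 993 CPM in KD. SREBF1, the factor that controls these genes, was higher at 1.04 and ELOVL6, which lengthens palmitate, at 1.63. MLXIPL and OXSM were not called, at -0.56 and -0.22. The EV cells lay between NT and KD for FASN and SCD, at 2282 ± 7.59 CPM and 878 ± 38.7 CPM, and against EV 8 of the 15 were called higher and 2 lower (median 0.28), with SCD (0.22) and ACACA (0.0931) not called. Relative to NT the median of the list was 0.79 to 0.84 in the KD and 0.80 to 0.85 in the OE samples. The rise over NT was therefore not particular to KD.

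Of 23 tested genes of cholesterol synthesis and uptake 18 were higher and 2 lower (median 0.53). STARD4, which carries sterol between membranes, had 4.41 and 4.33 CPM in NT and 12.5, 10.1 and 13.2 CPM in KD (BH-adjusted p = 5.38e-10 in the edgeR quasi-likelihood test). HMGCS1, an early enzyme of the pathway, rose by 0.45 and was not called without NT replicate 2 (0.43). TM7SF2 and SC5D, late steps, fell by 0.66 and 0.50 on the log2 scale. Here too the EV cells stood closer to KD. The median of the list relative to NT was 0.47 to 0.53 in the KD, 0.40 to 0.47 in the EV and 0.69 to 0.88 in the OE samples. Against EV 5 of 23 were higher and 1 lower in KD, with STARD4 (0.27) and SC5D (-0.33) not called. Of 13 acyl-CoA synthetases, which activate fatty acids, 6 were higher and 0 lower. ACSL3 had 169.6 and 173 CPM in NT and 395, 322 and 387 CPM in KD and ACSM1 2.04 and 1.51 CPM in NT and 5.095, 4.103 and 5.67 CPM in KD, with 436 ± 20.6 CPM and 5.53 ± 0.943 CPM in EV, and none of the 13 was called higher against EV. In lipid droplet genes 4 of 12 were higher and 1 lower. SOAT1, which esterifies cholesterol, rose from 13.1 and 14.97 to 33.3, 34.9 and 33.6 CPM, HILPDA, an inhibitor of lipolysis, from 7.47 and 7.94 to 14.6, 13.5 and 13.4 CPM, and PNPLA2, the first triglyceride lipase, was not called at 0.24. In EV SOAT1 was at 39.9 ± 1.48 CPM, above KD, and HILPDA was at 11.5 ± 1.39 CPM. Neither was called against EV, where 2 of the 12 were higher and 1 lower.

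In the pathway that CPT1A feeds the differences were smaller, and most calls were higher. Of the 9 genes of the carnitine shuttle CPT1A was the 1 called lower, and 3 were higher. CPT2 had 48.5 and 46.3 CPM in NT and 69.3, 69.1 and 62.7 CPM in KD and SLC25A20 12.8 and 11 CPM in NT and 15.8, 18.2 and 16.6 CPM in KD, with log2 fold changes of 0.4973 and 0.5008, and CROT, the peroxisomal carnitine octanoyltransferase, had 10.6 and 10.6 CPM in NT and 19.5, 16.1 and 21.1 CPM in KD, at 0.84. The other isoforms were scarce. CPT1B had 0.4214 to 0.83 CPM in the 5 samples and CPT1C 5.09 and 5.32 CPM in NT and 2.99, 4.103 and 3.98 CPM in KD, and neither was called. Of 18 genes of mitochondrial beta-oxidation 7 were higher and 1 lower (median 0.13). ECHS1, the enoyl-CoA hydratase, had 158 and 162 CPM in NT and 276, 276 and 259 CPM in KD, ACADS, for short chains, 21.7 and 25.3 CPM in NT and 38.5, 44.5 and 40 CPM in KD, and ACADVL, for very long chains, 440 and 440.4 CPM in NT and 527, 584 and 534 CPM in KD. ACADM, for medium chains, was lower with 55.3 and 55.3 CPM in NT and 44.2, 35.9 and 42.6 CPM in KD, and HADHA of the trifunctional protein was not called at -0.03. With an offset for GC content SLC25A20, ACADVL and ACADM were not called, at 0.42, 0.13 and -0.16. Without NT replicate 1 the same 3 genes and CROT lost their calls (SLC25A20 0.62, ACADVL 0.32, ACADM -0.43 and CROT 0.84), as they did without NT replicate 2 (0.3995, 0.32, -0.43 and 0.83 in that order), and SLC25A20 did so without KD replicate 3 too. Against EV 1 of the 18 was higher, ECHS1, and 1 lower. Of the 9 carnitine shuttle genes 0 were higher than in EV and 2 lower, CPT1A among them. The differences from EV were 0.14 for CPT2, 0.34 for SLC25A20, 0.59 for CROT, 0.15 for ACADS, 0.0809 for ACADVL and -0.15 for ACADM, and none of the 6 was called.

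In central metabolism the rises were mostly small. Of 18 genes of the tricarboxylic acid cycle 9 were higher and 1, SDHD, lower (median 0.27), and against EV 3 were higher and 0 lower (median 0.06). The call of SDHD was lost against EV (0.0273), with the GC offset (-0.18) and without any 1 of NT replicate 1 (-0.36), NT replicate 2 (-0.29), KD replicate 1 or KD replicate 3. IDH2, the mitochondrial NADP isocitrate dehydrogenase, was far above the others, with 111 and 114 CPM in NT and 289, 293 and 268 CPM in KD (log2 fold change 1.33, BH-adjusted p = 2.36e-16 in the edgeR quasi-likelihood test). Of 20 genes of glycolysis 10 were higher and 1 lower (median 0.26), and against EV 6 were higher and 1 lower. HK1, hexokinase 1, had 114 and 115 CPM in NT and 205, 201 and 193 CPM in KD and was not called against EV (0.15), while HK2 was not called at -0.07. The lactate carriers moved apart, since SLC16A3 (MCT4) rose from 29.7 and 31.5 to 78.9, 77.4 and 78.2 CPM and SLC16A1 (MCT1) fell from 322 and 309.7 to 147, 146 and 149.9 CPM. Respiratory complex genes of the nucleus were called at about the background share, 15 of 70 higher and 5 lower (median 0.06), and 7 higher and 0 lower against EV. Of the 13 protein messages of the mitochondrial genome 4 were lower and 0 higher. MT-ND3 had 3713 and 3775 CPM in NT and 1703, 2102 and 1799 CPM in KD and MT-ND2 7487 and 7907 CPM in NT and 4438, 5099 and 4509 CPM in KD, both subunits of complex I, MT-CO1 was at 0.02, and without KD replicate 2, 10 of 13 were called lower.

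Genes of the cytosolic ribosome were lower almost throughout. Of 79 tested ribosomal protein genes 70 were called lower and 0 higher, with a median of -0.58, and 77 had each KD sample below both NT samples. Of the 73 with at least 50 CPM on average 69 were called. Their sum was 96120 to 96320 CPM in NT and 62750 to 69490 CPM in KD. RPL7 had 1932 and 1709 CPM in NT and 865, 934 and 880.5 CPM in KD, a fall of 1.03 on the log2 scale (BH-adjusted p = 7.44e-14 in the edgeR quasi-likelihood test). Among the 9 that were not called were RPL8, RPLP2, RPS2, RPS15 and RPS27L, between -0.23 and -0.19, and RPL17, RPL36A and RPS10, each with a mean of 24.5 CPM or less in NT. Ribosomal protein genes have near-identical processed pseudogenes, and the sources used here do not state how reads that map to several genes were counted. Relative to NT the list's median was -0.63, -0.50 and -0.62 in KD and -0.29 and -0.33 in EV, and against EV 43 of 79 were lower and 1 higher, with a median of -0.29. Ribosome assembly did not share this, with 4 of 21 genes higher and 3 lower. NPM1, nucleophosmin, fell from 1790 and 1755 to 1003, 990.3 and 1016 CPM and NOP16 rose from 39.8 and 37.6 to 56.6, 56.97 and 58.9 CPM. MYC, which controls both classes, was at 0.26 with a BH-adjusted p of 0.000102 in the edgeR quasi-likelihood test, just outside the limit. Of 37 proteasome genes 3 were higher and 4 lower.

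Androgen-induced genes were mostly higher in KD than in NT but not than in EV. Of 26 androgen-induced genes 21 were called higher and 1, KLK4, lower (median 0.78). KLK3, which codes for prostate-specific antigen (chromosome 19, 50854915 to 50860764, plus strand), had 2355 and 2576 CPM in NT and 4234, 4649 and 4441 CPM in KD, a 1.801-fold rise (BH-adjusted p = 2.02e-12 in the edgeR quasi-likelihood test). FKBP5, a chaperone of steroid receptors, had 99.4 and 96.1 CPM in NT and 386, 332 and 359.8 CPM in KD, the largest rise among the better expressed genes at 1.88. TMPRSS2, a serine protease of prostate epithelium, had 582 and 598 CPM in NT and 738, 862 and 788 CPM in KD. In EV these were at 3412 ± 107 CPM for KLK3, 275 ± 18.7 CPM for FKBP5 and 1154 ± 48.2 CPM for TMPRSS2. Against EV 5 of the 26 were higher and 6 lower in KD, with a median of -2e-04. Relative to NT, the median of the list was 0.72 to 0.81 in the KD, 0.74 and 0.80 in the EV and 0.72 to 0.80 in the OE samples, so the NT samples were the low ones. Of 5 tested androgen-repressed genes 2 were lower, the opioid receptor OPRK1 and the receptor tyrosine kinase MET, both under 3 CPM. Neither was called against EV, where OPRK1 was at -0.88 in place of -3.23 and MET at -0.98 in place of -2.55. Of 7 tested prostate lineage factors 3 were higher and 1, NCOA2, lower (-0.36). Against EV 2 were higher and 1 lower (median -0.0734), and NCOA2 was not called (-0.17). FOXA1, a factor that opens chromatin in prostate cells, was not called (0.21), while HOXB13 rose by 0.35 and GATA2 by 0.5024. HOXB13 was not called with the GC offset (0.16), against EV (0.099) or without NT replicate 1 (0.33) or NT replicate 2 (0.37). Of 13 luminal prostate markers 6 were higher and 2 lower. SLC45A3 (prostein) rose by 1.47, and FOLH1, which codes for prostate-specific membrane antigen, fell from 992 and 1014 to 644, 724 and 690.1 CPM. The markers summed to 7419 and 7659 CPM in NT and 10270 to 11070 CPM in KD. Against EV 2 of the 13 were higher and 4 lower (median -0.0734), and SLC45A3 was at -0.18 with 398 ± 30.1 CPM in EV and 352 ± 5.34 CPM in KD.

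**Figure D5:**
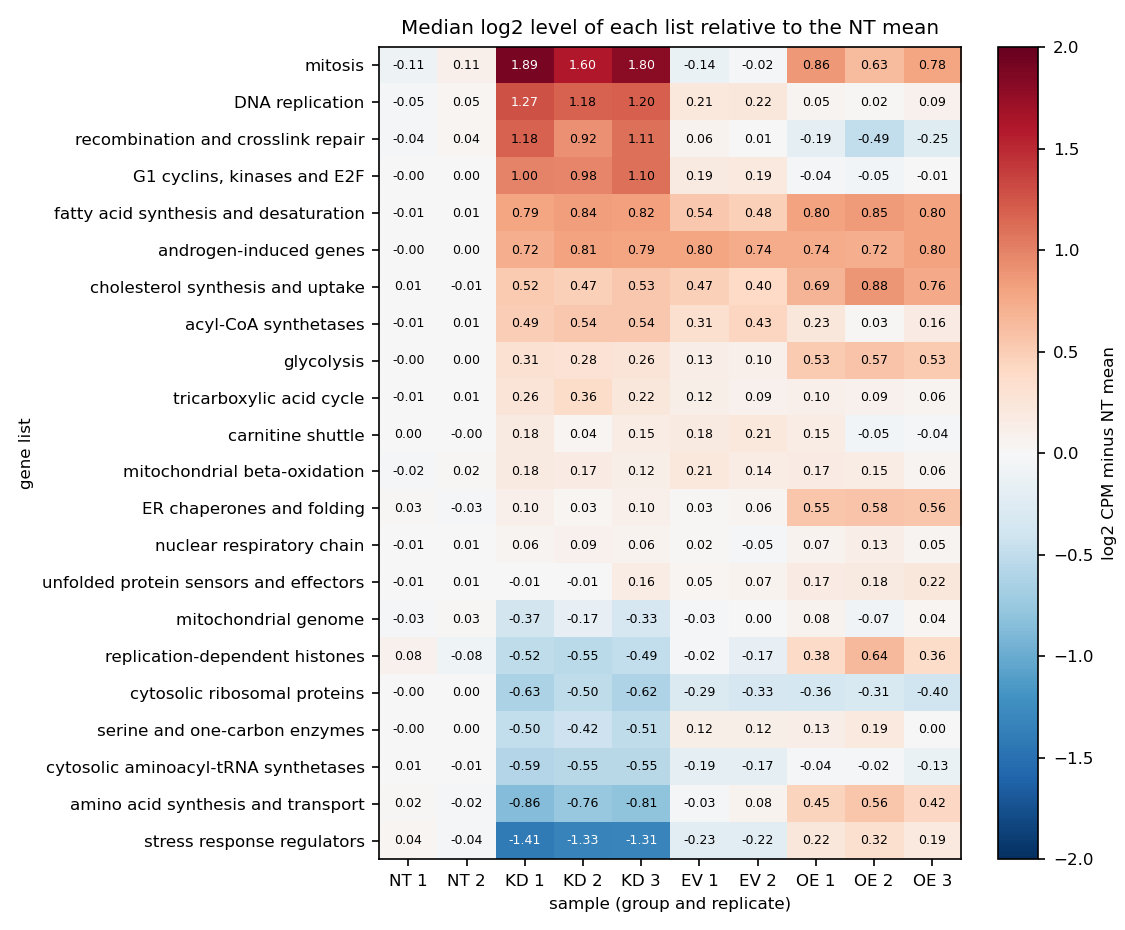
Median log2 CPM of 22 gene lists (vertical axis) in each of the 10 samples (horizontal axis), relative to the NT mean, with the value printed in each cell and coloured from blue (lower) to red (higher). Replication and mitosis are highest and the amino acid and stress lists lowest in the 3 KD samples, with mitosis at 0.63 to 0.86 in OE, while androgen-induced genes are at 0.72 to 0.81 in the KD, EV and OE samples.

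In redox genes the directions were mixed. Of 18 tested NRF2 targets 4 were higher and 4 lower. GSR, glutathione reductase, had 210.2 and 214 CPM in NT and 453, 440.5 and 437 CPM in KD, the largest rise at 1.06 (BH-adjusted p = 2.14e-15 in the edgeR quasi-likelihood test), and HMOX1, heme oxygenase, rose from 14 and 13.6 to 24.6, 18.7 and 26.6 CPM, a call lost without NT replicate 1 (0.78 on the log2 scale), NT replicate 2 (0.74), KD replicate 1 or KD replicate 3, with the GC offset (0.58) and in limma-voom and DESeq2. FTH1, the ferritin heavy chain that stores iron, fell from 3517 and 3219 to 1356, 1365 and 1293 CPM, 2.52-fold (BH-adjusted p = 9.1e-17 in the edgeR quasi-likelihood test). Of 19 genes that remove superoxide and peroxides 4 were higher and 3 lower, and against EV 2 were higher and 2 lower. The largest rise was that of the extracellular dismutase SOD3, at 1.12, which was not called against EV (0.51). The mitochondrial dismutase SOD2 had 26.2 and 25.2 CPM in NT and 25.8, 26.1 and 26.2 CPM in KD and was not called at 0.02, nor were SOD1 (-0.15) and GPX4 (0.07). CAT, catalase, was lower at -0.34 (not called without NT replicate 2, at -0.33) and PRDX5, a peroxiredoxin, at -0.79.

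Growth factor genes held some of the largest single changes. Of 13 genes of insulin and IGF signalling 5 were higher and 5 lower, and against EV 3 were higher and 6 lower. IGF1R, the receptor of insulin-like growth factors, had 46.4 and 44.9 CPM in NT and 140.5, 138.9 and 137.7 CPM in KD, 3.04-fold higher (BH-adjusted p = 1.08e-17 in the edgeR quasi-likelihood test), but 205 ± 7.92 CPM in EV, above the KD cells. IGFBP3 was lower than both controls, since EV had 7.48 ± 1.76 CPM. IRS1, IRS2, PIK3R1 and FOXO3 fell by 0.40, 0.66, 0.84 and 0.60 on the log2 scale. Of 15 immediate early and MAPK feedback genes 2 were higher, PHLDA1 and DUSP4, and 4 lower, and FOS and EGR1 stayed under 1 CPM. DUSP4 was not called without NT replicate 1 (0.33) and was lower than in EV (-0.5033). Neuroendocrine and neuronal genes gave 2 lower of 6 tested, ENO2 and NCAM2 at -0.79 and -0.44, and 9 of the 15 listed had too few counts to test, CHGA and CHGB among them. Neither was called against EV, at -0.36 and -0.0178, nor NCAM2 with the GC offset (-0.0897). Of 12 tested genes of epithelial and mesenchymal state 5 were higher and 1 lower, and against EV 1 was higher and 1 lower. CDH1, E-cadherin, had 678 and 642 CPM in NT and 676, 711 and 649.7 CPM in KD and was not called, and VIM, vimentin, had 80.2 and 81.7 CPM in NT and 32.7, 39.5 and 36.5 CPM in KD in these samples and 34.4 ± 1.46 CPM in EV, at the level of KD. Of 22 tested interferon-stimulated genes, which double-stranded RNA can induce, 3 were higher and 1 lower. OAS3 rose from 15.4 and 17.6 to 40.6, 37.5 and 36.7 CPM, and IFIT1 was not called.

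Other lists showed single members. Of 11 tested hypoxia genes 3 were higher, CA12, a carbonic anhydrase, at 1.22 among them, and 4 lower. Polyamine genes gave 4 of 10 higher and 2 lower, and 2 higher and 1 lower against EV, with ODC1, the first enzyme of the pathway, at 598 and 561 CPM in NT and 809.6, 763 and 767 CPM in KD, and SAT1, which acetylates polyamines for export, at 94.02 and 91.9 CPM in NT and 69.1, 75.3 and 72.7 CPM in KD and not called without NT replicate 1 (-0.34) or NT replicate 2 (-0.38). ODC1 was at 0.43 against NT and 0.1966 against EV, where it was not called. Of 18 genes of lysosome and autophagy 3 were higher and 3 lower, and 0 higher and 4 lower against EV. SQSTM1 (p62), an autophagy receptor, had 642 and 572 CPM in NT and 331, 369 and 341 CPM in KD, and MAP1LC3B fell from 59.8 and 51.8 to 30.2, 34.99 and 31.3 CPM, while TFEB, the factor that induces lysosomal genes, rose from 5.999 and 5.6 to 11.2, 11.8 and 12.6 CPM, with 7.87 ± 0.287 CPM in EV. Of 9 tested metallothionein and zinc genes 1 was higher, MT2A.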

How the data were processed

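Poly(A) RNA of 3 KD and 2 NT samples, with 2 EV and 3 OE samples, was sequenced in pairs on a NovaSeq after RNA isolation and library construction with a NuGen mRNA kit. The authors trimmed adapters with BBDuk and aligned and quantified the reads with STAR 2.6.0a against Ensembl release 96 on hg38. The deposited values are raw counts per gene symbol, 57353 symbols in 10 columns, and strandedness and the handling of reads that map to several genes are not given in the sources used here. Groups and replicate numbers came from the sample labels.

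Counts of all 10 samples were filtered with filterByExpr, scaled with TMM and fitted in edgeR 4.0.16 (R 4.3.3) with 1 mean per line, and KD minus NT was tested with the quasi-likelihood F test. The study used limma, which is an alternative here (limma 3.58.1, voom), as is DESeq2 1.42.0. The Benjamini-Hochberg method adjusted p over 17230 genes, and a gene was called under 0.0001. SE are the log2 fold change divided by the square root of F. The common biological coefficient of variation was 0.0446. Calling was tested on simulated data.

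The 42 gene lists came from general knowledge, and the comparison and the lists were chosen with earlier results of these data known, so a list is described by counts and a median without a test of its own. Named were CPT1A, a few anchors of each list, the 2 largest called rises and falls of each list, and the 15 largest called rises and falls at a mean of at least 5 CPM, which gave 227 genes, not all of them discussed, and a few are not reported here. Other genes were named after their values were seen. Positions, length and GC content came from GENCODE v44 (GRCh38), matched by symbol for 14333 of 17230 genes (83.2%), and promoters from RefSeq on GRCh38.p14, where the first window listed for a gene was used. A floor of 3 counts corresponded to 0.0995 to 0.119 CPM in the KD and NT samples. The alternatives were other scalings, filters, tests and limits, the replicate block, a fit of only the 5 samples, EV as control and each sample left out, and, added after the data were seen, an offset for GC content fitted per sample.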

Additional observations from a re-analysis of the deposited data

How the results depend on the processing

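The log2 fold change of CPT1A kept its direction and call in each alternative, from -1.66 to -1.62 with 1 sample left out. Of the 5022 calls, 4970 stood in the same direction with DESeq2 size factors, 4874 with limma-voom, 4858 with the DESeq2 Wald test and 4193 with the offset for GC content, which called 2731 higher and 2491 lower. That offset called 74 of 79 ribosomal protein genes lower, in place of 70. It also called 17 of 17 stress regulators lower and 39 of 40 replication genes higher. It moved 26 of 42 list medians by more than the SD of that median over the 3 KD samples. With the offset 7 in place of 4 of the 13 mitochondrial messages were called lower, and 2 of 9 carnitine shuttle genes were called in each direction (median 0.0081). Medians turned below 0 for insulin and IGF signalling (-0.0238), immediate early genes (-0.0684) and the proteasome (-0.0217). A fit of only the KD and NT samples gave 3732 calls, 2213 higher and 1519 lower, of which 3731 stood in the same direction with all samples. Leaving out 1 KD or NT sample at a time gave 3110 to 5339 calls, 1796 to 2999 higher and 1314 to 2340 lower, and 920 to 1214 with a 2-fold change. The lowest counts of calls in either direction came without NT replicate 1, and where 1 NT sample remained, it was assumed to vary like the other groups. An adjusted p under 0.05 gave 9905 calls, 5019 higher, 4886 lower and 1940 with a 2-fold change.

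Against EV, which shares the KD samples, there were 2949 calls, 1577 higher, 1372 lower and 658 with a 2-fold change, and 2263 stood in the same direction as against NT. Of 193 named genes called besides CPT1A, 63 lost their call there, 36 without NT replicate 1, 30 without NT replicate 2, 19 in the fit of only the KD and NT samples, 17 with the GC offset and 16, 2 and 12 without KD replicates 1, 2 and 3. Of the 221 named genes, called or not, 10 that were called in neither comparison had the opposite sign against EV, and 19 that were called in at least 1 of them turned direction, with log2 fold changes of SLC7A5 -0.70, SLC43A1 -0.65, CREB3L4 -0.0557, SOAT1 -0.23, ACSM1 -0.15, ACSL3 -0.24, BARD1 0.61, TMPRSS2 -0.54, SDHD 0.0273, UQCRB 0.0024, RPL10L 0.0124, BST2 -1.55, DUSP4 -0.50, IGF1R -0.56, SMS -0.12, VIM 0.0762, SLC45A3 -0.18, MMP16 -1.16 and LINC00632 1.18. Medians of 8 lists had the opposite sign, unfolded protein sensors and effectors -0.12, p53 targets 0.15, prostate lineage factors -0.0734, insulin and IGF signalling -0.24, luminal prostate markers -0.0734, carnitine shuttle -0.0475, immediate early and MAPK feedback -0.50 and androgen-induced genes -2e-04. The cause was not tested.

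With the replicate block 5236 genes were called, 2936 higher and 2300 lower. Same-numbered NT and KD samples had correlations of -0.02 and 0.04 after removal of the group means. With 2 NT samples these residuals are mirror images of each other, so the correlations cannot show whether the numbers pair the samples. Changes of genes under 1 CPM were rarely called at this depth (2.86%).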

Other observations

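The clustered protocadherins are cell adhesion proteins encoded side by side on chromosome 5. They were picked after their values were seen. Of 28 tested PCDHB and PCDHG genes 8 were called lower (28.6%, beside 12.8% of all tested genes) and 1 higher (median log2 fold change -1.25). PCDHGA6 was at 3.29 CPM in NT and 0.724 CPM in KD (means, n = 2 and 3), and PCDHGA3 at 0.989 and 0.157 CPM. PCDHGC3, the C-type member at the end of the cluster, was higher, with 9.89 CPM in NT and 21.1 CPM in KD (log2 fold change 1.09). The EV mean lay between the KD and NT means for 7 of the 8 lower genes (2.66 CPM for PCDHGA6) and for PCDHGC3 (13.7 CPM), close to KD for PCDHB5 (0.838 CPM, beside 0.79 CPM in KD and 2.81 CPM in NT), and below KD for PCDHB2 (1.44 CPM, beside 1.79 CPM in KD and 4.47 CPM in NT). The OE cells were below NT and EV for all 8, with 0.573 CPM for PCDHB5, so the low levels are not particular to KD. Most of these genes had under 5 CPM, and PCDHG transcripts share 3′ exons, so reads may be split between the PCDHG genes.

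Genes named ZNF, mostly C2H2 zinc finger repressors, were also picked after their values were seen. Of 460 tested, 28.7% were called lower, beside 12.8% of all tested genes, and 19 genes higher (median log2 fold change -0.32). Calls of lower were also frequent among transcripts of lowest GC content, at 710 of 2867 genes. The ZNF genes were not compared with genes of like GC content, nor with EV or OE, so their share cannot be told apart from that shift. The nuclear noncoding RNAs MALAT1 and NEAT1 fell from means of 1723 and 343.8 CPM in NT to 507.8 and 183.1 CPM in KD. The EV means were 1119 and 367.3 CPM and the OE means 369.9 and 183.8 CPM, so these low levels are not particular to KD.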
